A study of Mus musculus with 6 samples.

Results

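The 1448 regions described here are stretches of chromatin in mouse cardiac neural crest cells that carried acetylated lysine 27 of histone H3 (H3K27ac) away from the ends of protein-coding genes and held no peak of the chromatin remodeller CHD7. They were chosen by measured peak calls. Overlapping H3K27ac peaks of both libraries were merged into 17756 consensus regions, each with a peak in both. Of these, 6542 were distal, meaning more than 1 kb from either annotated end of every protein-coding gene. The 1448 regions, 22.1% of the distal ones, overlapped no peak of either CHD7 library and no peak called in input chromatin. They are called regions without CHD7 below. The absence of CHD7 is therefore the rule itself and not a finding. They are set beside the 4949 distal H3K27ac regions that overlapped a CHD7 peak and no input peak, called regions with CHD7.

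The study mapped CHD7 and H3K27ac by chromatin immunoprecipitation with sequencing (ChIP-seq), with 2 CHD7 libraries, 2 H3K27ac libraries and 2 input libraries. All 6 came from cells of embryos at embryonic stage E10.5 whose fathers carried Wnt1-Cre2 and whose mothers carried the mTmG reporter. In these embryos Cre recombinase driven by Wnt1 sequences switches cells of the neural crest lineage to green fluorescent protein, and the fluorescent cells were sorted from pharyngeal arches 3 to 6. The labels name no mutant and no treatment, and do not say whether the libraries of a group came from separate sorts. The labels therefore set the groups apart only by antibody or as input, and nothing here measures a response to losing CHD7. The deposited files are peak lists without read counts, and sequencing depth is therefore unknown. In sorted bulk chromatin, weak acetylation in many cells and acetylation in few of them cannot be told apart.

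H3K27ac is placed by the acetyltransferases p300 and CBP and marks active enhancers and promoters, and away from genes it is widely used to find enhancers in use. CHD7 slides nucleosomes with energy from ATP hydrolysis. It occupies many enhancers and promoters, and mutations of its gene cause CHARGE syndrome, in which structures built with neural crest cells, including the outflow tract of the heart, are malformed. A distal region with H3K27ac and no CHD7 peak is thus a candidate active element at which CHD7 was not called. A missing call is not proof of absence, since weak occupancy can stay below the peak caller's threshold.

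Some of the strongest regions without CHD7 overlap an annotated transcription start that lies inside the gene's outermost limits, and 6 of these promoter windows are shown because they are the windows under the regions of highest H3K27ac in that class. The RefSeq windows run from 250 bases before to 50 bases after the start, on build GRCm38.p6, and are printed in the direction of transcription. Capitals mark letters of the motifs searched on both strands: the CCAAT box (CCAAT), the GC box (GGGCGG), the ETS core (CCGGAA), the palindromic E-box (CACGTG), the cyclic AMP response element (TGACGTCA), the TATA box (TATAAA) and the AP-1 site (TGANTCA). None of the 7 motifs contains another, and on the other strand the letters appear as their reverse complement. A match describes letters and is no evidence that a factor was bound.
Vps25 (chr11:101253457-101253756, plus strand): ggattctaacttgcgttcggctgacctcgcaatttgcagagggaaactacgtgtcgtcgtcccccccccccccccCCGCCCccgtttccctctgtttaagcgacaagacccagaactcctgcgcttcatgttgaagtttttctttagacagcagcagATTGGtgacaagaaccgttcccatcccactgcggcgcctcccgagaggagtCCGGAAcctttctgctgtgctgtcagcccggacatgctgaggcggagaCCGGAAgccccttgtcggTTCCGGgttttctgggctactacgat
Ccdc12 (chr9:110656253-110656552, plus strand): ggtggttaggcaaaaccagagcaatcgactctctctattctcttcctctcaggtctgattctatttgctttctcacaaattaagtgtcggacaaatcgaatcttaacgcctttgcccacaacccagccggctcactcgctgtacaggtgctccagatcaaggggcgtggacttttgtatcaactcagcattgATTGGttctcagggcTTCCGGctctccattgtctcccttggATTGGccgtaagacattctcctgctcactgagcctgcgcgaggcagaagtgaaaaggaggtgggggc
Tmem14a (chr1:21218325-21218624, plus strand): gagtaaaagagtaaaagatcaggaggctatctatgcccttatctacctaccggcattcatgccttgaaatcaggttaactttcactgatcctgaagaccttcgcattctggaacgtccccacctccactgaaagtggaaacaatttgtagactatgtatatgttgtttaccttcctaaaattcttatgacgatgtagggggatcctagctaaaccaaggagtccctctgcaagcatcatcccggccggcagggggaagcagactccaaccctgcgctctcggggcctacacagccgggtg
Tmem39b (chr4:129696796-129697095, minus strand): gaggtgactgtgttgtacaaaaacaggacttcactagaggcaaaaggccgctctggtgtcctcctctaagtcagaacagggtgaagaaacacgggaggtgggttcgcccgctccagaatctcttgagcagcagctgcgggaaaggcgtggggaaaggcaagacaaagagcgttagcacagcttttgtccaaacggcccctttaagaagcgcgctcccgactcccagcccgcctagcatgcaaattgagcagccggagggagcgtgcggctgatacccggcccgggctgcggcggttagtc
1700055D16Rik (chr6:134792110-134792409, plus strand): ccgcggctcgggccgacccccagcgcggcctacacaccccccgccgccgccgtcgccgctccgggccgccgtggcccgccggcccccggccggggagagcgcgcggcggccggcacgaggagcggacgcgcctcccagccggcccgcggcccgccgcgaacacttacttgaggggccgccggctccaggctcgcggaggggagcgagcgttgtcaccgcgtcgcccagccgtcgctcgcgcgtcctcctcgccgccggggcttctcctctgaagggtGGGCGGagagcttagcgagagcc
Zdbf2 (chr1:63273019-63273318, plus strand): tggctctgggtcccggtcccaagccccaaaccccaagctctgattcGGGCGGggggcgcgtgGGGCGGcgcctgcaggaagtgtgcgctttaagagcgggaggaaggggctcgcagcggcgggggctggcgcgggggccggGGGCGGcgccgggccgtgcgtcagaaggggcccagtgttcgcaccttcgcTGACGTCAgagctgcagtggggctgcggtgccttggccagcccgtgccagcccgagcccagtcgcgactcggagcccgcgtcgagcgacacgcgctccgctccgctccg

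Vps25 encodes a subunit of the ESCRT-II complex of endosomal sorting, and the region at its window, chr11:101253672-101254257, had H3K27ac folds of 6.19 and 7.06 in libraries 1 and 2. Fold here is the authors' enrichment of ChIP signal at the peak summit. The Vps25 window holds 1 CCAAT box, 1 GC box and 3 ETS cores, with a GC content of 58.3%. Ccdc12, which encodes a protein of the spliceosome, had folds of 6.49 and 5.86 at chr9:110656402-110656944, and its window holds 2 CCAAT boxes and 1 ETS core. The windows of the membrane protein genes Tmem14a (folds 6.95 and 5.36) and Tmem39b (folds 5.32 and 5.67) hold none of the 7 motifs, which says only that these letters are not in those windows. The start of the long non-coding RNA 1700055D16Rik lies in a region inside Dusp16, a phosphatase gene of MAP kinases, with folds of 4.77 and 6.06, and its window has a GC content of 80.3% with 53 CpG dinucleotides. Zdbf2, an imprinted gene expressed from the paternal allele, has a start in a region with folds of 5.84 and 4.29. Its window holds 3 GC boxes and 1 cyclic AMP response element. At the 5 windows on the plus strand the H3K27ac summits lay downstream of the start, 62 to 258 bp away in library 1 and 78 to 372 bp away in library 2. At Tmem39b, on the minus strand, they lay 313 and 301 bp upstream.

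Regions without CHD7 carried weaker H3K27ac than regions with CHD7 in both libraries. In library 1 the fold of the regions without CHD7 ran from 1.64 to 7.18 with a median of 3.05, against a median of 3.58 and a highest value of 12.5 for regions with CHD7. In library 2 it ran from 1.67 to 7.41 with a median of 3.01, against a median of 3.56 and a highest value of 12.7 with CHD7. The distributions overlap over most of their range and part at the top, where the 90th percentile was 4.02 in both libraries without CHD7, against 5.65 and 5.52 with CHD7. On the log2 scale the median of regions without CHD7 over that of regions with CHD7 was −0.23 and −0.24, a mean of −0.24 ± 0.00725 (SD, n = 2 libraries). The exact sign-flip permutation test over 2 libraries, two-sided, gave p = 0.5, the smallest p that 2 libraries allow, so the difference has no test beyond its recurrence in both.

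**Figure D1:**
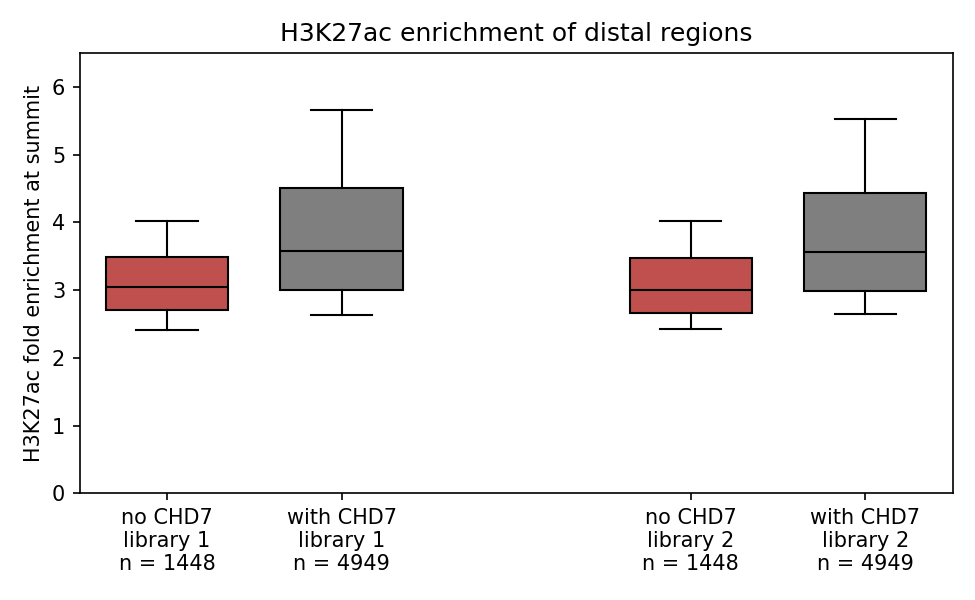
H3K27ac fold enrichment at the summit (vertical axis, no unit) of the 1448 distal regions without CHD7 and the 4949 with CHD7, in each H3K27ac library. Boxes span the quartiles, the line is the median and whiskers reach the 10th and 90th percentiles. The medians of regions without CHD7, 3.05 and 3.01, lie below those with CHD7, 3.58 and 3.56.

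The peak calls of the regions without CHD7 also stood closer to the caller's threshold. Their median −log10 q, the caller's significance corrected over all candidate peaks, was 4.57 in library 1 and 4.32 in library 2, against 7.53 and 7.35 for regions with CHD7. Both libraries reached a −log10 q of 5 at 332 regions without CHD7 (22.9%) and at 2938 with CHD7 (59.4%). At 10 the numbers were 57 (3.94%) without CHD7 and 1380 (27.9%) with CHD7. Regions without CHD7 were also narrower, with a median width of 580 bp against 755 bp. Fewer had several summits, 10.8% and 10.01% in the 2 libraries against 25.1% and 24.9%. An overlap of 1 bp with a CHD7 peak excluded a region, and a wider region has more bases to overlap. Width thus enters the rule, and its part in these differences was not tested. The fold was lower without CHD7 in both libraries within each of the 4 width quartiles. Among regions in the narrowest quartile the log2 ratio was −0.11 in library 1 and −0.13 in library 2, and among the widest quartile it was −0.34 and −0.33.

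The libraries gave similar values at the same region without CHD7. The larger fold was a median of 1.13 times the smaller, as it was for regions with CHD7, and library 1 was the higher at 735 of the 1448. Summits of the libraries lay a median of 89 bp apart without CHD7 and 66 bp apart with CHD7. Across regions, the Spearman rank correlation between the libraries' folds was 0.53 without CHD7 (n = 1448) and 0.75 with CHD7 (n = 4949). This is a description over regions that share both libraries, and the regions without CHD7 span a narrower range of fold.

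The share of distal regions that had no CHD7 peak went down along the scale of H3K27ac. Over all distal regions free of input peaks it was 22.6%. In the lowest decile by mean fold, 1.65 to 2.65, 270 of 639 regions had no CHD7 (42.3%), and in the highest decile, 5.26 to 12.2, 15 of 640 (2.34%). The 100 strongest distal regions included 0 without CHD7, the 500 strongest 8 and the 1000 strongest 38, and the strongest region without CHD7 ranked 149. By width the share was 36.0% in the narrowest quartile and 7.94% in the widest. By distance from a gene end the quartiles, nearest first, gave 20.01%, 24.8%, 22.7% and 23.0%. Among distal regions the share thus varied more over fold deciles and width quartiles than over quartiles of distance from a gene end. The parts of the caller's detection limit and of width, which enters the rule through overlap, were not tested in these gradients.

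**Figure D2:**
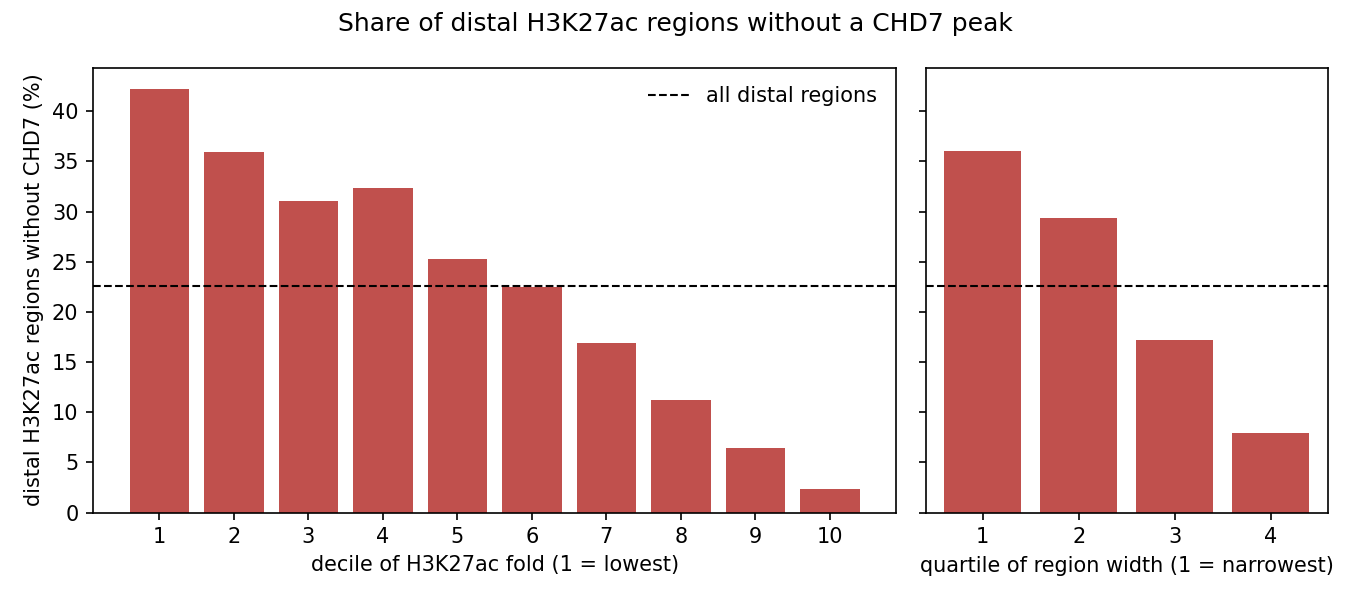
Percent of distal H3K27ac regions without a CHD7 peak (vertical axes) in deciles of mean H3K27ac fold and quartiles of region width, each from low to high. The dashed line is the 22.6% of all distal regions. The bars run from 42.3% in the lowest decile by fold to 2.34% in the highest. By width they run from 36.0% in the narrowest quartile to 7.94% in the widest. A wider region has more bases to overlap a CHD7 peak, so width enters the rule.

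Although none overlapped a CHD7 peak, many regions without CHD7 lay close to one. The nearest CHD7 peak was a median of 8078.5 bp away. It was within 100 bp for 54 regions (3.73%), within 500 bp for 308 (21.3%), within 1 kb for 396 (27.3%) and within 10 kb for 794 (54.8%), and it was over 100 kb away for 54. At distances over 100 and up to 500 bp there were 254 regions, over 1000 and up to 2000 bp 61, over 2000 and up to 4000 bp 73, and over 4000 and up to 10000 bp 264. A histogram on a log scale therefore has a first mode below 1000 bp and a second beyond 4000 bp. Distances from other positions without CHD7 are not given here, so nothing shows closeness to be particular to these regions.

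**Figure D3:**
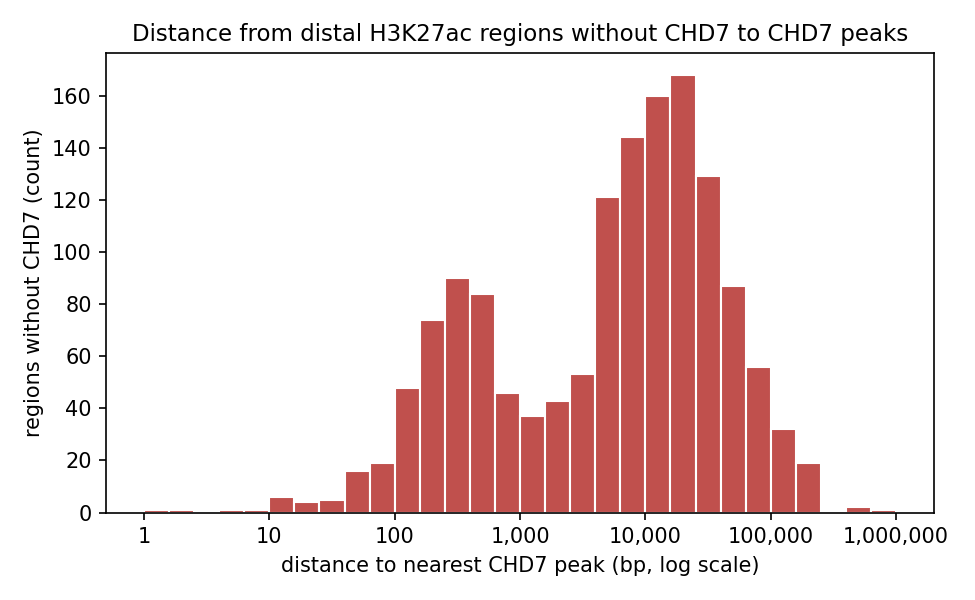
Number of distal H3K27ac regions without CHD7 (vertical axis) by the distance from the region to the nearest CHD7 peak of either library (horizontal axis, bp, log scale). A first group lies below 1000 bp, with 254 regions over 100 and up to 500 bp away, and a second, broader group lies beyond 4000 bp, around a sparse stretch with 61 regions over 1000 and up to 2000 bp away.

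The 396 regions with a CHD7 peak within 1 kb had median H3K27ac folds of 2.94 and 2.90, and 56.8% lay inside a gene. The 654 regions with no CHD7 peak within 10 kb had folds of 3.16 and 3.08, and 48.9% lay inside a gene, with a median distance of 28168.5 bp from a gene end against 13538.5 bp for those near CHD7. The regions far from CHD7 peaks thus had no lower H3K27ac than those near them. The neighbouring CHD7 peaks had lower CHD7 folds, a median of 3.03 for the 340 of library 1 and 3.08 for the 275 of library 2, against 3.33 and 3.32 for CHD7 peaks that overlapped a distal H3K27ac region. The median over all CHD7 peaks was 3.19 and 3.24. Of these neighbours 44.7% and 48.4% overlapped another H3K27ac region, against 46.7% and 52.6% of all CHD7 peaks.

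Values at the edges of the rule are given as a description, with no test. The 17 regions up to 100 bp beyond the 1 kb limit from a gene end had median folds of 3.79 and 3.13, and the 20 excluded regions without CHD7 up to 100 bp inside it had 3.50 and 3.27. The 54 regions with a CHD7 peak 1 to 100 bp away had 3.01 and 3.00, and the 60 distal regions that a CHD7 peak overlapped over at most 100 bp had 2.94 and 3.01. At the gene end limit the libraries gave opposite orders, on few regions. The CHD7 limit also rests on which library is asked: of the 5087 distal regions with CHD7, before input peaks were removed, 3742 had a peak in both CHD7 libraries, 895 in library 1 alone and 450 in library 2 alone.

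In place along the genome, regions without CHD7 resembled regions with CHD7. Inside protein-coding genes lay 773 (53.4%) and between genes 675 (46.6%), against 54.8% and 45.2% of regions with CHD7. The median distance to a gene end was 18076 bp without CHD7 and 17626 bp with CHD7, and 179 (12.4%) against 618 (12.5%) lay beyond 100 kb. Another H3K27ac region stood within 12.5 kb of 561 regions without CHD7 (38.7%) and of 1997 with CHD7 (40.4%). For 471 (32.5%) that neighbour, or one of them, carried CHD7, and for 127 (8.77%) it was another distal region without CHD7. Most H3K27ac regions carried CHD7, and these counts were not made around regions with CHD7. They therefore describe no trait particular to regions without CHD7.

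The share without CHD7 was higher on X than on any other chromosome. On X, 34 of 99 distal regions had no CHD7 (34.3%), against 1413 of 6294 on the autosomes (22.4%), where single chromosomes ran from 17.9% on chromosome 13 to 27.5% on chromosome 2. At gene ends, which the distal regions exclude, 75 of 240 H3K27ac regions on X had no CHD7 or input peak (31.3%), against 1147 of 10956 on the autosomes (10.47%). Over all chromosomes 1222 of the 11214 regions at gene ends had none (10.9%). The folds of the X regions without CHD7 ran from 2.71 to 7.18 with a median of 3.91 in library 1, and from 2.59 to 6.95 with a median of 3.72 in library 2, against medians of 3.04 and 2.995 for regions without CHD7 on the autosomes. Regions with CHD7 on X had medians of 4.38 and 4.04, so on X too the fold was lower without CHD7, and both kinds on X were above the autosomal regions without CHD7. CHD7 peaks on X made up 1.296% and 1.09% of the peaks of the libraries, against 1.98% and 1.89% of H3K27ac peaks. The labels give no sex of the embryos.

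Of the 1336 regions without CHD7 that were assigned to a gene, 95 went to the neural crest, signalling and cell type lists described further on. Of the 10 strongest 0 did, and 10 regions are too few to set apart from 95 of 1336. The highest mean fold was in Wiz, whose zinc finger protein acts with the histone methyltransferases G9a and GLP, with folds of 6.14 and 7.41 at chr17:32363486-32364344, 9.44 kb inside a gene end. On X, a region beside Gpkow, a spliceosome gene, had 6.19 and 6.95 at chrX:7714227-7714624. A region beside Was, the Wiskott-Aldrich syndrome gene best known in blood cells, had 7.18 and 4.36 at chrX:8096536-8096954. The library values of Was and of Arhgef17, with 6.96 and 5.002 at chr7:100879079-100879729, differed more than those of Gpkow. Arl8a, which encodes a GTPase of lysosomes, had 5.92 and 5.07 at chr1:135153935-135154546.

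Regions that were strong in both libraries by significance included a pair near the distal ends of the sex chromosomes. The region nearest to Gm52481 on Y, chrY:90784200-90784785, had folds of 6.40 and 6.88 and the highest −log10 q of all regions without CHD7, 37.2 and 50.4. The region nearest to Mid1, a ubiquitin ligase gene on X, chrX:170009300-170009838, had folds of 5.002 and 5.51 with −log10 q of 24.0 and 35.3. Both lay close to a CHD7 peak, 289 bp away for the Y region and 375 bp away for the X region. The sources used here do not give how reads that match both X and Y were treated. Of the 57 regions with −log10 q of at least 10 in both libraries, 41 lay inside genes (71.9%) and 28 had a CHD7 peak within 1 kb (49.1%). A promoter window was overlapped by 15 (26.3%), and 3 lay on X or Y. Over all 1448 the shares were 53.4% inside genes, 27.3% within 1 kb of a CHD7 peak and 10.4% with a window. Such shares are not given for the 1380 regions with CHD7 at that limit. They therefore describe no trait particular to regions without CHD7.

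Over 100 kb from every gene end, the strongest region without CHD7 lay inside Col22a1, a collagen gene, at chr15:72033550-72034259, with folds of 4.50 and 5.55. It was 116.7 kb from a gene end and 775 kb from the nearest CHD7 peak, the longest such distance of all 1448. A region 224.6 kb from Pcmtd1, chr1:7398255-7398851, had 5.05 and 4.94, and the end of the long non-coding RNA Gm26901 lay 159 bp away. A region 448.4 kb from Rgma, which encodes a BMP co-receptor and axon guidance molecule, had 5.05 and 4.04. A region 170.8 kb from Pou3f1, a POU transcription factor gene of neural and Schwann cells, had 3.89 and 4.72. The widest regions without CHD7 measured between 1493 and 1646 bp. They included Igf2bp1, an RNA-binding protein gene (3.19 and 4.23), Dag1, the dystroglycan gene (3.72 and 4.32), and Kcnh2, a potassium channel gene (3.96 and 4.10).

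Being distal from gene ends did not mean being far from every start. Of the regions without CHD7, 150 (10.4%) overlapped a RefSeq promoter window, 87 of them a protein-coding one and 68 a long non-coding one, some both. Among regions with CHD7 the number was 1025 (20.7%), with 748 protein-coding and 333 long non-coding. The 150 regions had median folds of 3.22 and 3.20, against 4.46 and 4.42 for the 1025 with CHD7. Regions without CHD7 and without a window had 3.04 and 2.99, against 3.41 and 3.40 for those with CHD7. The gap in H3K27ac was therefore present at annotated starts and away from them.

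The promoter windows under regions without CHD7 held fewer CpG dinucleotides. Their median GC content was 58.7%, against 61.3% in windows under regions with CHD7 and 52.7% over all 32851 windows. The ratio of observed to expected CpG had a median of 0.57 without CHD7, 0.72 with CHD7 and 0.38 over all windows. It reached 0.6, a usual mark of a CpG island, in 45.9% of the 170 windows without CHD7, 65.5% of the 1224 with CHD7 and 35.8% of all. The GC box was in 45.9%, 59.0% and 35.7% of windows in the same order, the ETS core in 19.4%, 22.5% and 14.9%, and the CCAAT box in 23.5%, 31.0% and 37.4%. The TATA box was in 4.71%, 7.27% and 13.6%, the palindromic E-box in 4.12%, 8.66% and 7.15%, and the AP-1 site in 2.94%, 5.47% and 7.81%. The cyclic AMP response element was rare in all, at 2.94%, 2.70% and 1.79%. Windows without CHD7 thus stood between those with CHD7 and the average window in CpG and GC box, and below both in CCAAT, TATA, E-box and AP-1 letters, on counts of 5 to 40 windows. Several windows can belong to 1 region, and some windows, such as those of Fpgs, Mga and Adipor2, touched regions of both kinds. The windows are therefore not independent and the sets not fully separate. The mix of protein-coding and long non-coding starts, given above, also differed between the sets, and its part was not tested.

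**Figure D4:**
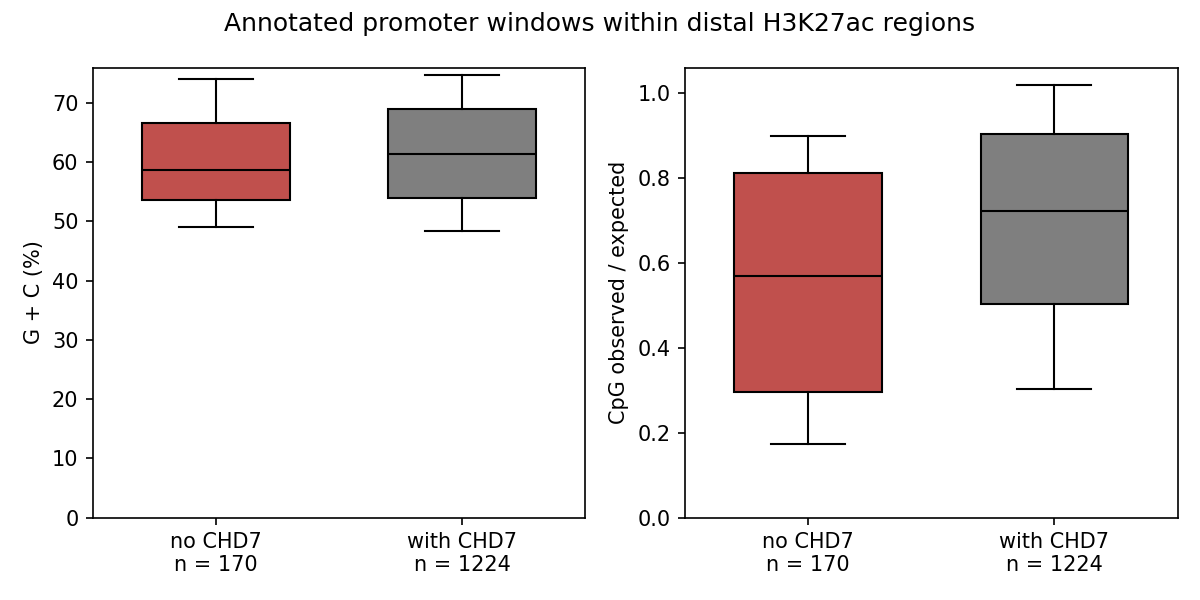
GC content (percent) and the ratio of observed to expected CpG (no unit) of RefSeq promoter windows under distal H3K27ac regions without CHD7 (n = 170) and with CHD7 (n = 1224). Boxes span the quartiles, the line is the median and whiskers reach the 10th and 90th percentiles. The medians are 58.7% and 61.3% for GC and 0.57 and 0.72 for the CpG ratio, with wide overlap. Some windows touch regions of both kinds and are counted in both sets.

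Ends of non-coding genes were less frequent at regions without CHD7. A long non-coding RNA end lay within 1 kb of 172 (11.9%), against 746 with CHD7 (15.1%), and a tRNA gene near 3 (0.207%) against 86 (1.74%). The highest fold at a long non-coding end was that of 1700055D16Rik, given above. Norad, a long non-coding RNA that binds Pumilio proteins, had 4.80 and 5.43 at chr2:156392096-156392963, with its end 16 bp away. A730049N16Rik had 4.57 and 5.67.

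MicroRNA genes lay within 1 kb of 6 regions without CHD7 (0.414%) and of 36 with CHD7 (0.727%). The mature sequences of 4 of them are shown from RefSeq, with the seed, bases 2 to 8, in capitals, since the seed sets which messages a microRNA can pair with. No seed is shared among these 4.
mmu-miR-199b-3p: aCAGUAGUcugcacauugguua
mmu-miR-5103: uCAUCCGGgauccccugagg
mmu-miR-125b-5p: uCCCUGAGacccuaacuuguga
mmu-miR-130a-3p: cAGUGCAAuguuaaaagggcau

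The hairpin of miR-199b lay within the region chr2:32318317-32318745 inside Dnm1, which had folds of 2.31 and 2.62. The hairpin of miR-5103 lay within chr1:34432628-34433391, with folds of 3.70 and 3.18. The region near miR-125b-1, chr9:41582402-41582823, had 2.26 and 1.94, and the one near miR-130a, chr2:84741978-84742515, had 2.84 and 3.17. The regions at miR-199b and miR-125b-1 lay below the median of the regions without CHD7 in both libraries and the one at miR-5103 above it. The one at miR-130a lay below it in library 1 and above it in library 2.

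To describe the genes around the regions, each region was assigned to the protein-coding gene that contains it, or otherwise to the nearest within 100 kb, which does not show that it regulates that gene. In this way 1336 of the regions without CHD7 were assigned to 1143 genes, 5.25% of all 21776, and 4557 regions with CHD7 to 3160 genes, 14.5%. Both kinds were present at 514 genes, which is 45.0% of the 1143 and 16.3% of the 3160. Of the 1143 genes, 614 also had an H3K27ac region at a gene end (53.7%), against 42.9% of all genes. Longer genes were assigned more: from the shortest to the longest quartile, 1.87%, 3.14%, 4.90% and 11.1% of genes had a region without CHD7, and 4.41%, 9.74%, 15.0% and 28.9% had one with CHD7.

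Most genes, 983 of the 1143, had a single region without CHD7, while 21 had 3, 4 had 4 and 1 had 6. The uncharacterised gene 1700001O22Rik was the one with 6, at distances of 10.8 to 86.4 kb, of which the strongest, chr2:30758720-30760200, had folds of 3.50 and 3.60. It also had 5 regions with CHD7. Cstad, assigned regions on the same stretch of chromosome 2, had 4 without CHD7 and 9 with CHD7. Npas3, a bHLH-PAS transcription factor gene, had 4 without CHD7 and 1 with CHD7, and its strongest had 4.27 and 4.77. The autophagy gene Atg7 had 4 and 9, and Bahcc1, a chromatin reader gene, had 4 and 3. Mef2c, a transcription factor gene of the anterior heart field and of crest, had 3 without CHD7 and 0 with CHD7. So had Wdr66 and Tmem178b.

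The Mef2c regions had folds of 3.44 and 4.14 inside the gene, and of 3.31 and 4.16 and of 3.14 and 3.11 between genes, 63.5 and 77.6 kb away. All 3 were above the median of the regions without CHD7 in both libraries. Nearest CHD7 peaks were 1.36 to 4.85 kb from them.

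Listed pathways and cell types were then described by counts, beside the 22.7% of assigned distal regions that had no CHD7. The lists hold 394 genes and were chosen with earlier results of these data known. In all, 75 of these genes had a region without CHD7 and 129 one with CHD7.

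**Figure D5:**
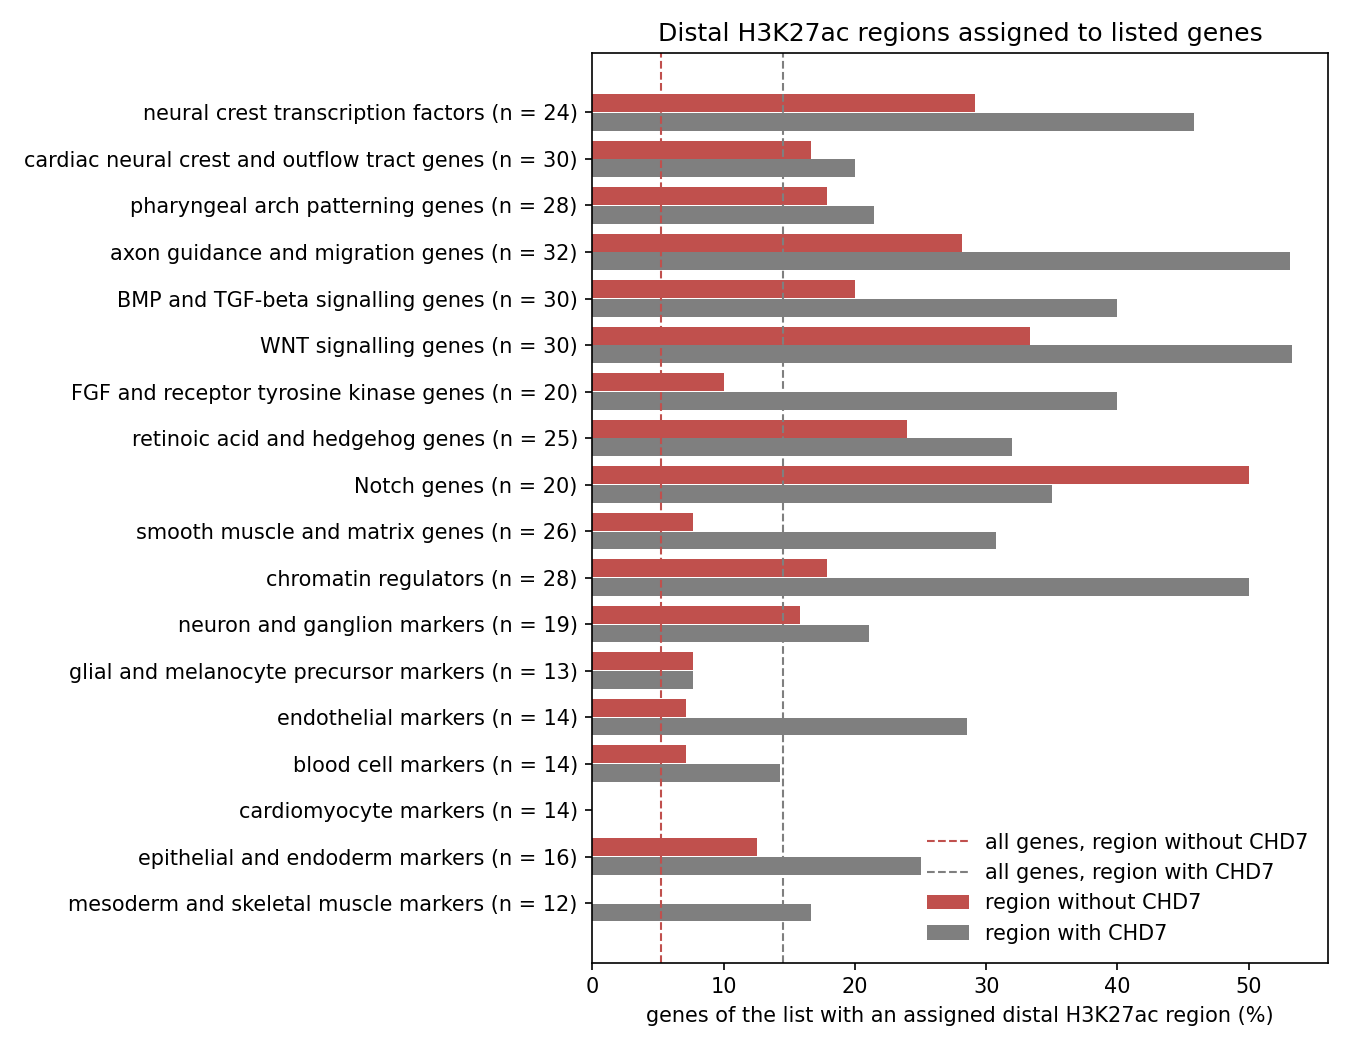
Percent of the genes of each list (rows, number of genes in brackets) to which a distal H3K27ac region without CHD7 or with CHD7 was assigned (horizontal axis). Dashed lines are the shares of all genes, 5.25% without CHD7 and 14.5% with CHD7. Notch genes had regions without CHD7 at 10 of 20, and cardiomyocyte markers had neither kind.

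Among transcription factors of the neural crest, 7 of 24 genes had a region without CHD7 and 11 had one with CHD7, and 10 of the 27 distal regions had no CHD7 (37.0%). They included Sox9, a crest and cartilage factor, with folds of 3.20 and 2.95 at 72.9 kb, Sox5 with 3.28 and 3.32 inside the gene, and Pax3, an early crest specifier, with 3.52 and 2.74 at 84.2 kb. Sox10, Tfap2b, Foxd3 and Snai2 had neither kind of region, and Tfap2a and Ets1 had regions with CHD7 alone.

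Cardiac crest and outflow tract genes had 5 of 30 with a region without CHD7 and 6 with CHD7, and 7 of their 16 distal regions had no CHD7 (43.8%). Isl1, a factor of the second heart field and of neurons, had 3.75 and 5.66, which differ by more than most pairs of libraries. Tbx3, a T-box factor of the conduction system, had 3.58 and 3.56, and Ednra, the endothelin receptor of arch crest, had 2.65 and 2.57. Hand1, Hand2 and Tbx1 had neither kind. Among arch patterning genes 5 of 28 had a region without CHD7 and 6 one with CHD7, and 7 of their 14 distal regions had no CHD7. Examples are Dlx2 at 3.38 and 2.81 and Nr2f1 at 2.55 and 2.68.

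In signalling, Notch genes had the largest share with a region without CHD7 of the 18 lists. It was 10 of 20 genes, against 7 with CHD7, and 14 of their 33 distal regions had no CHD7 (42.4%). By that second measure arch patterning and cardiac crest genes stood higher, as did the 3 of 7 regions of neuron markers and the 1 of 2 of glial and melanocyte markers. Maml3, a coactivator gene of the Notch complex, had 3 regions without CHD7 and 10 with CHD7, and its strongest without CHD7 had 3.20 and 3.27. Rbpj, the DNA-binding partner of Notch, had 3.28 and 2.95, Hes1, a direct target, had 3.01 and 3.40, and Notch1, a receptor, had 2 regions without CHD7 and 0 with CHD7. Gene length, with which both shares went up over all genes, was not matched between the lists.

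WNT genes had 10 of 30 without CHD7 and 16 with CHD7, and 12 of 36 distal regions had none (33.3%). Znrf3, a ubiquitin ligase that removes WNT receptors, had 3.25 and 3.34, the ligand gene Wnt4 had 2.52 and 3.90, and Wnt5b 4.01 and 2.41. The libraries thus gave opposite orders for the pair of ligand genes. Of BMP and TGF-beta genes, 6 of 30 had regions without CHD7, against 12 with CHD7, and 9 of 27 distal regions had none (33.3%). Smad6, the inhibitory Smad, had the strongest, 5.05 and 5.01 at chr9:64066541-64067880, 44.5 kb away, with 2 more at 3.22 and 2.99 and at 2.41 and 3.09. It also had 3 regions with CHD7. The BMP antagonist gene Nog had 2.93 and 3.23.

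In the hedgehog and retinoic acid list, 6 of 25 had a region without CHD7 and 8 with CHD7. Of the distal regions of this list, 8 of 20 had no CHD7 (40%). The receptor Ptch1 had 2.86 and 2.79, and the effector Gli3 had 2.23 and 2.57. Guidance genes had 9 of 32, against 17 with CHD7, and 9 of their 33 distal regions had no CHD7 (27.3%). The semaphorin receptor gene Plxna1 had 4.45 and 3.72, the ephrin Efnb1 on X had 4.89 and 3.26, and Sema3a had 3.26 and 4.11. FGF and receptor tyrosine kinase genes had 2 of 20, against 8 with CHD7. The feedback inhibitor Spry4 had 4.25 and 3.37, and Etv5, an ETS factor responding to FGF, had 3.42 and 3.72.

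Of chromatin regulators, 5 of 28 genes had a region without CHD7 (17.9%), against 14 with CHD7. Of their 37 distal regions 5 had no CHD7 (13.5%), below the 22.7% of all assigned distal regions. Also below it were FGF and receptor tyrosine kinase genes (3 of 17, 17.6%) and endothelial markers (1 of 5, 20%). Mesoderm and skeletal muscle markers, with 0 of 2, and smooth muscle and matrix genes, with 2 of 11 (18.2%), were below it too. Of the 26 smooth muscle and matrix genes, 2 had a region without CHD7 and 8 one with CHD7. Arid1b and Arid1a, subunits of the BAF remodeller, had 3.82 and 3.72 and 2.45 and 2.25. Chd7 itself, named here after its values were seen, had a region without CHD7 at chr4:8911984-8912459, 43.5 kb from its end, with folds of 1.92 and 2.25. Both lie below the 10th percentile of the regions without CHD7, 2.42 and 2.43. A CHD7 peak lay 90 bp away.

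Markers of other cells that the sort could hold had regions without CHD7 at 0% to 15.8% of the genes of a list, on both sides of the 5.25% of all genes. Cardiomyocyte markers had 0 of 14 genes with either kind of region, and mesoderm and skeletal muscle markers 0 of 12 without CHD7 and 2 with CHD7. Neuron markers had 3 of 19 (15.8%) without CHD7 and 4 with CHD7, among them Isl2 with 4.005 and 4.195. Epithelial markers had 2 of 16 (12.5%) without CHD7 and 4 with CHD7, with Krt18 at 3.76 and 2.92 and Grhl2 at 3.71 and 2.86. The other lists had a single gene without CHD7. Of 14 endothelial markers it was Cdh5, with 2.64 and 2.70, against 4 genes with CHD7. Of 14 blood markers it was Runx1, with 2.77 and 3.86, against 2 with CHD7. Of 13 glial and melanocyte markers it was S100b, with 2.75 and 2.44, against 1 with CHD7. The part of other cells in these regions was not tested. Of the defining crest genes, Sox9, Pax3, Tfap2a and Ets1 had distal H3K27ac regions of either kind. Sox10, Foxd3, Tfap2b, Snai2, Twist1, Prrx1, Msx1 and Msx2 had none. Of the defining endothelial genes, Pecam1 and Cdh5 had such regions, and Kdr, Tek and Erg had none. Distal H3K27ac alone thus stood at a part of the defining genes of crest and of endothelium. It does not single out the label of the sorted cells, and gene ends were not used for this.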

How the data were processed

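ChIP-seq peak lists of 6 libraries, 2 each for CHD7, H3K27ac and input, were used. Per the submitters' processing notes, the tools were bcl2fastq 2.18.0.12 and Picard, with Bowtie2 2.3.3.1 and MACS2 2.1.2, on build mm10. The authors called each deposited list from 1 library. The fold at the summit is a ratio that the authors' peak caller computed before deposit. The authors' caller also computed the p-value and q-value, deposited as −log10. The integer score in the lists was derived by the authors' caller as deposited and was not used. The sources used here do not give whether input was the control. Lists hold no counts, so depth, and any interval from it, is unknown.

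Rows of 1 interval with several summits were joined with the highest fold kept, and chromosomes 1 to 19, X and Y were used, which left out 27 to 75 peaks per ChIP library. Overlap meant at least 1 bp. Gene ends came from a RefSeq table of the same build, with 21776 protein-coding genes and neither strand nor exons, so exon, intron and UTR were not assigned. The 300 bp RefSeq promoter windows carry strand. Python 3.11.15, pandas 2.3.3 and numpy 2.4.6 were used, and the member rule was tested on simulated data. The members and gene lists were chosen with earlier results of these data known. Shares and counts are descriptions without a test, since regions are not replicates. The ratio of median fold was compared by an exact sign-flip test over libraries.

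Named regions are the 10 with the highest mean fold, the 5 highest inside genes, between genes and over 100 kb from a gene end, and the 5 widest. Named genes are the 10 with most regions and up to 4 per list by mean fold, with defining genes that had none. Named non-coding genes go by mean fold. Others, chosen after their values were seen, are Chd7, Notch1, Tfap2a, Ets1, Pecam1, Kdr, Tek, Erg and the microRNAs. Alternatives varied the libraries, q limits, overlap, distances, gene set, assignment and input filter.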

Additional observations from a re-analysis of the deposited data

How the results depend on the processing

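The log2 ratio of median fold, regions without CHD7 over regions with CHD7, kept its direction under all 18 alternatives, between −0.44 and −0.18. The number of regions was 1448 and depended on the calls: a peak in either H3K27ac library gave 6147, CHD7 required in both libraries 2752, H3K27ac −log10 q of at least 5 gave 332 and of at least 10 gave 57, and CHD7 −log10 q of at least 5 gave 2961 and of at least 10 gave 5051. In the same order, the share of distal regions without CHD7 (22.1%) was 43.5%, 42.1%, 9.80%, 3.75%, 45.3% and 77.2%. The share between genes (46.6%) was 48.5%, 45.5%, 44.3%, 28.1%, 45.4% and 45.1%. The genes with a region (1143) were 3475, 1996, 297, 55, 2105 and 3195. The X share minus the autosomal share (11.9 points) was 6.68, 14.8, 17.6, 4.18, 14.5 and 10.1 points.

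A CHD7 overlap of 50% of the shorter interval gave a share without CHD7 of 25.4% and an X difference of 8.51 points. CHD7 counted within 500 bp gave a share of 17.4%, and within 1000 bp a share of 16.1%, 47.9% between genes and an X difference of 9.96 points. H3K27ac libraries joined at 50% overlap gave 45.5% between genes and 13.5 points. A limit of 500 bp from gene ends gave 43.9% between genes, a limit of 2.5 kb gave 49.1% and 13.7 points, and ends of all annotated genes gave 44.1% and 8.73 points.

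Leaving out each CHD7 and H3K27ac library in turn gave 1893 to 4307 regions, a share of 28.9% to 38.5%, 45.1% to 48.5% between genes, 1454 to 2724 genes, an X difference of 7.07 to 14.2 points and a log2 ratio of −0.26 to −0.19. Without an H3K27ac library a peak in both could not be required, so those runs also changed the rule. They gave 3609 regions without library 1 and 4307 without library 2. Leaving out CHD7 library 1 gave 2339 and CHD7 library 2 gave 1893. The most regions and genes, and the highest share, came without H3K27ac library 2, and the largest X difference without CHD7 library 1. No paired analysis was possible because no result comes from a test between groups of libraries, and the fold was already compared within each library. Unknown depth limits every statement on a missing CHD7 peak.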
